A study of Mus musculus with 8 samples.

Results

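The mouse genes of the miR-297, miR-466, miR-467 and miR-669 hairpins form a repeat cluster in an intron of Sfmbt2, a Polycomb-type chromatin gene, with a few relatives elsewhere in the genome. Their reads were followed here in small RNA of 8 hearts. The hairpins were taken by name from the mouse entries of the deposited count tables (mir-297, mir-466, mir-467 or mir-669 followed by a letter, a hyphen or nothing). The rule used no read count. It gave 40 hairpin entries listed in at least 1 heart, of 500 mouse entries and of 764 entries of the 3 species in the tables (mouse, human and rat). No human or rat entry carried these names.

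The study compared 4 female and 4 male hearts, whole and from separate animals. Every animal was a wild-type mouse of the C57Bl6/J strain, 4 to 6 weeks old and called adult in the labels, and no group carried a deletion, a transgene or a treatment. Per the labels' protocols, RNA was taken from each heart alone and enriched for molecules under 200 nt. Each library held 29900500 to 38894987 counts on miRNA hairpins. The 7 cardiac muscle miRNAs chosen as markers made up 272800 to 369500 of every 1000000 mouse mature counts (reads per 1000000, RPM), and the 7 hairpins of the trophoblast and embryonic stem cell list had 0 counts in all 8 hearts. Red cell miRNAs varied most among the other marker lists, from 54.2 to 1285 RPM.

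A miRNA gene is transcribed as a hairpin, and enzymes cut the hairpin into short mature strands from its 5' arm and its 3' arm. Bases 2 to 8 of the mature strand, the seed, pair with target messenger RNAs. The Sfmbt2 cluster is known from rodents, has grown by tandem duplication, and is best known in placenta and embryonic stem cells, where Sfmbt2 is expressed mainly from the paternal allele. In the heart, miR-669a has been described in mouse cardiac progenitors, where it was reported to hold back skeletal muscle genes by targeting MyoD.

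RefSeq annotated 82 hairpins of the family in build GRCm38.p6, of which 72 lie inside Sfmbt2 (chromosome 2, 10370440 to 10595253, plus strand). Those 72 spread over 51.62 kb, from 10466663 to 10518279. All 72 lie in introns on the strand of Sfmbt2 and overlap none of its exons. All 40 listed entries matched a RefSeq gene by name, 38 of them inside Sfmbt2. Reads were thus listed for 48.78% of the annotated family hairpins. The value was 60.66% for the 61 annotated hairpins of the imprinted Dlk1-Dio3 cluster on another chromosome and 39.82% for all 1228 mouse miRNA genes. Listing did not require reads unique to an entry. Of the 40 listed entries, 10 had a unique mature read in any heart, and 5 had reads outside both arms only. On the Dlk1-Dio3 hairpins 99.96% of mature reads were unique on average, so the listed percentages do not compare like with like. The tables held no other mouse miRNA inside Sfmbt2.

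Simple repeats were common in the family's mature strands for which a sequence was at hand. The RefSeq sequence table held 8 of its mature strands, all from hairpins outside Sfmbt2. Alternating runs of C and A or of G and U at least 8 bases long were found in 6 of these 8, against 0.748% of all 1738 mouse mature miRNAs in the table. Shown first, because they belong to the listed hairpins outside Sfmbt2, are miR-466q (chr3:28419988-28420007, plus strand) and miR-466i-3p (chr13:17747552-17747573, plus strand). The other 3 come from hairpins not listed in any heart and show the CA type in a miR-467 (chr11:69635419-69635439, minus strand) and the GU type in a miR-466 (chr3:85467396-85467418, plus strand) and a miR-669 (chr3:115979905-115979924, plus strand). Capitals mark the seed.
miR-466q: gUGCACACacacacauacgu
miR-466i-3p: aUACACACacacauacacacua
miR-467f: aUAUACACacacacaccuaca
miR-466k: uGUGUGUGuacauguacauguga
miR-669n: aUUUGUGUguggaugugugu
The longest CA run was 12 bases in miR-466q and in miR-467f and 11 bases in miR-466i-3p. The longest GU run was 9 bases in miR-466k and 8 in miR-669n. No other mature miRNA of the table shared a seed with any of these 5. Strands from inside Sfmbt2 were absent from the table, so seeds shared with them could not be seen.

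Reads of the family were rare in heart. The tables give, for each hairpin, reads on the 5' arm and the 3' arm (together the mature counts) and reads elsewhere on the hairpin. The 40 entries held 4126 mature counts over the 8 hearts, with 413, 758, 491 and 484 in female replicates 1 to 4 and 415, 572, 446 and 547 in male replicates 1 to 4. Both sexes covered much the same range, and female replicate 2 was the highest heart. Relative to all mouse mature counts this was 17.9 ± 3.12 RPM in the female hearts and 17.1 ± 3.38 RPM in the male hearts (SD, n = 4 each). The Dlk1-Dio3 hairpins held 52385 to 66110 counts per heart. In whole hearts, a low level in all cells and a higher level in a few cells cannot be told apart.

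The 4 names differed widely. No miR-297 hairpin was listed, of 6 annotated. Of 29 annotated miR-466 hairpins 7 were listed, and 3 of these had mature counts, 35 in all. Of 17 miR-467 hairpins 14 had mature counts, and they held 58.58% of the family's counts. Of 30 miR-669 hairpins 18 had mature counts, and they held 40.57%. Counted by lettered subfamily, 14 of the 44 annotated had mature counts. All 10 copies of mir-467a, all 12 of mir-669a and both copies of mir-669p were among them, while none of the 8 copies of mir-466b was listed. The mir-467a, mir-669a and mir-669p copies had no unique read, so which of them gave rise to the reads is not known. How reads that match many places were counted is not given in the sources used here. A hairpin without counts is therefore not shown to be silent.

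Along the cluster, the counts lay in its middle. The stretch from mir-467c to mir-669a-2, whose hairpins start 103.4 to 139.7 kb from the start of Sfmbt2, held 47 annotated hairpins, 29 of them with mature counts, and 4062 counts in all. The other 25 hairpins of the cluster, before and after it, held 41 counts on 4 hairpins. The limits of that stretch were set after the counts were seen, so they describe the pattern and nothing more. Within it, 29 of 32 miR-467 and miR-669 hairpins had mature counts and none of the 15 miR-466 and miR-297 hairpins did. Most of these 29 were mir-467a, mir-669a and mir-669p copies without a unique read, so they are not separate findings of 29 hairpins. The limit given above for hairpins without counts holds here too.

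The stretch repeats a unit of 3 hairpins, a mir-467a, then a mir-466, then a mir-669a or mir-669p. This order occurred 10 times, and each run measured 604 to 605 bases from the first base of its mir-467a to the last base of its mir-669. Mature counts were present on the mir-467a hairpin in 10 of 10 runs, on the mir-669 hairpin in 10 of 10 and on the mir-466 hairpin in 0 of 10. Of the mir-466 hairpins of these runs, 2 were listed, with reads outside both arms only. Because the copies share their reads, counts on a run do not show that this copy was the source. Nor do missing counts on a mir-466 hairpin show that it was silent.

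**Figure D1:**
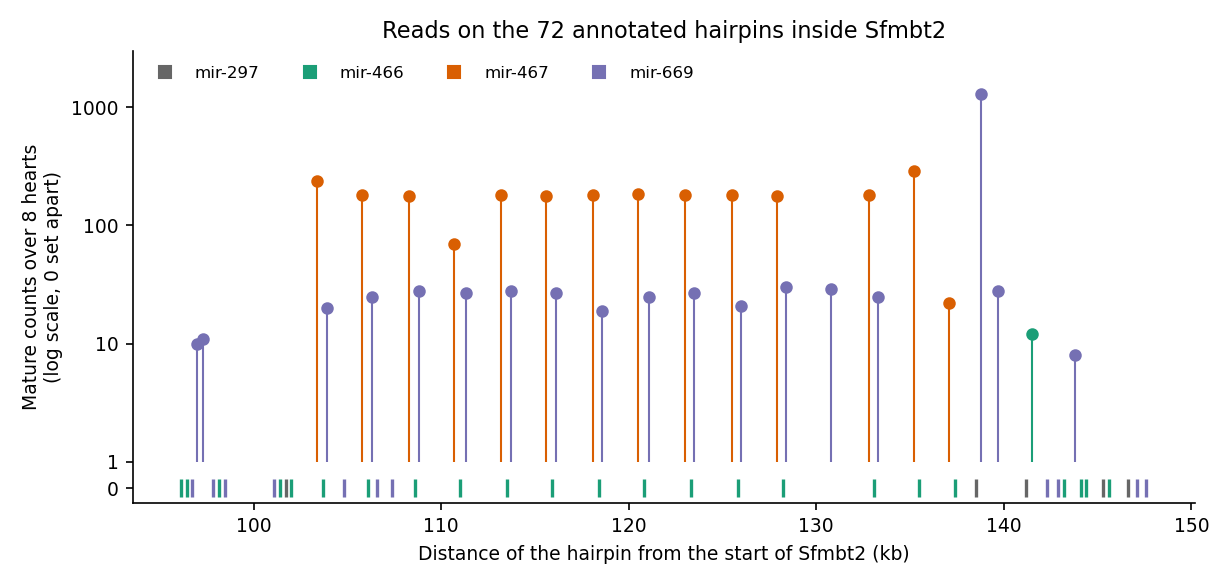
Mature counts summed over the 8 hearts (vertical axis, log scale, with ticks at 0 for hairpins without any) for the 72 annotated hairpins, against distance from the start of Sfmbt2 in kb (horizontal axis), coloured by family name. The counts lie between 103.4 and 139.7 kb apart from 41 counts on 4 hairpins, mir-467a copies stand at 176 to 184 counts each, and mir-669c reaches 1286.

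A mean of 14.75 ± 1.5 hairpins per female heart and 13.75 ± 0.5 per male heart (SD, n = 4 each) had at least 10 mature counts. The same 13 hairpins had at least 10 in all 8 hearts, namely the 10 mir-467a copies, mir-467c, mir-467e and mir-669c. Since shared reads are spread over copies, these numbers count entries and not mature miRNAs. With numbered copies summed first, a choice made after seeing the data, the means were 6.75 ± 1.5 and 5.75 ± 0.5 (SD, n = 4). Of the 40 entries, 28 were listed in all 8 hearts, 6 in 2 to 7 hearts and 6 in a single heart.

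The 5' arm of mir-467a was the largest contributor. Its 10 copies together held 241, 275, 125 and 195 counts in the female hearts and 227, 233, 183 and 322 in the male hearts, which is 43.65% of the family's mature counts. Female replicate 3 was lowest and male replicate 4 highest, and the sexes overlapped. None of the 1801 counts was unique to 1 entry, and 167 of them (9.27%) matched the mature sequence exactly. Within a heart, the 10 copies differed by at most 4 counts, and over all hearts a copy held 12 to 33. Such equal values are what division of shared reads among copies gives, so the copies, which run from mir-467a-1 (10476346 to 10476418) to mir-467a-10 (10503273 to 10503355), hold 1 measurement and not 10.

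The 5' arm of mir-669c (10509296 to 10509404) was the family's most abundant single entry. It held 92, 249, 220 and 205 counts in the female hearts and 118, 148, 156 and 98 in the male hearts. In raw counts female replicate 1 was the lowest heart and female replicates 2, 3 and 4 the highest. Scaled for library size and composition (CPM, defined below), male replicate 4 was lowest at 3.358, and female replicate 1 stood at 3.529. On both scales the sexes overlapped through female replicate 1. All 1286 counts were unique to this hairpin and 63.61% matched the mature sequence exactly. It ranked at 291 of the 640 mouse arm entries by mean count. It supplied 66.77% of the family's unique counts.

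Both other hairpins with unique reads in all 8 hearts were miR-467 genes. From mir-467e (10505721 to 10505807) the 5' arm held 15, 88, 39 and 26 counts in female and 17, 43, 36 and 25 in male hearts. Its counts were all unique, 60.9% were exact, and female replicate 2 stood above the other hearts. For mir-467c (10473931 to 10474027) the 5' arm held 15, 35, 21 and 19 counts in female and 22, 43, 36 and 45 in male hearts. Of its counts 89.83% were unique and 85.17% exact, and the sexes overlapped through female replicate 2 and male replicate 1. They ranked at 387 and 400 of the 640 mouse arm entries.

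The mir-669a copies shared their reads as the mir-467a copies did. Their 5' arms together held 20, 45, 43 and 32 counts in female and 12, 54, 19 and 23 in male hearts, with no unique read. The copies of mir-669p added 2 to 8 counts per heart. Over the 14 copies of both, 18.4% of 288 counts were exact, and a single copy held 0 to 5 counts in a heart. The 5' arms of mir-467a, mir-669c, mir-467e, mir-669a and mir-467c made up 93.55% of all mature counts of the family.

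**Figure D2:**
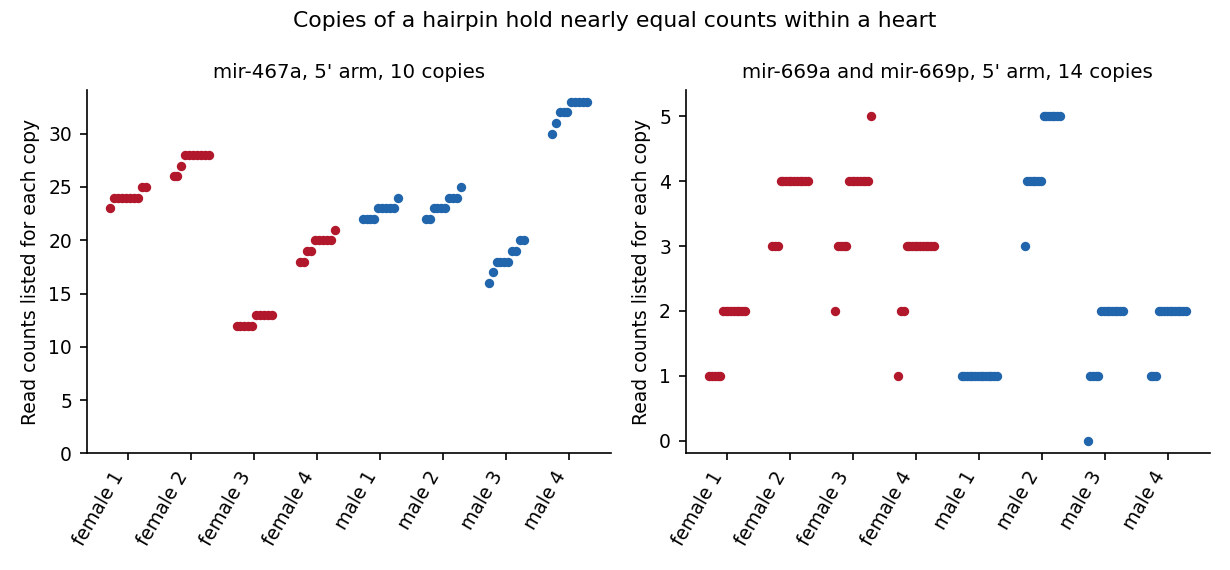
Read counts listed for each copy on the 5' arm (vertical axis) in each of the 8 hearts (horizontal axis), for the 10 mir-467a copies (left) and the 14 mir-669a and mir-669p copies (right); each point is 1 copy, red in female and blue in male hearts. Within a heart the mir-467a copies differ by at most 4 counts and the mir-669a and mir-669p copies by at most 3.

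**Figure D3:**
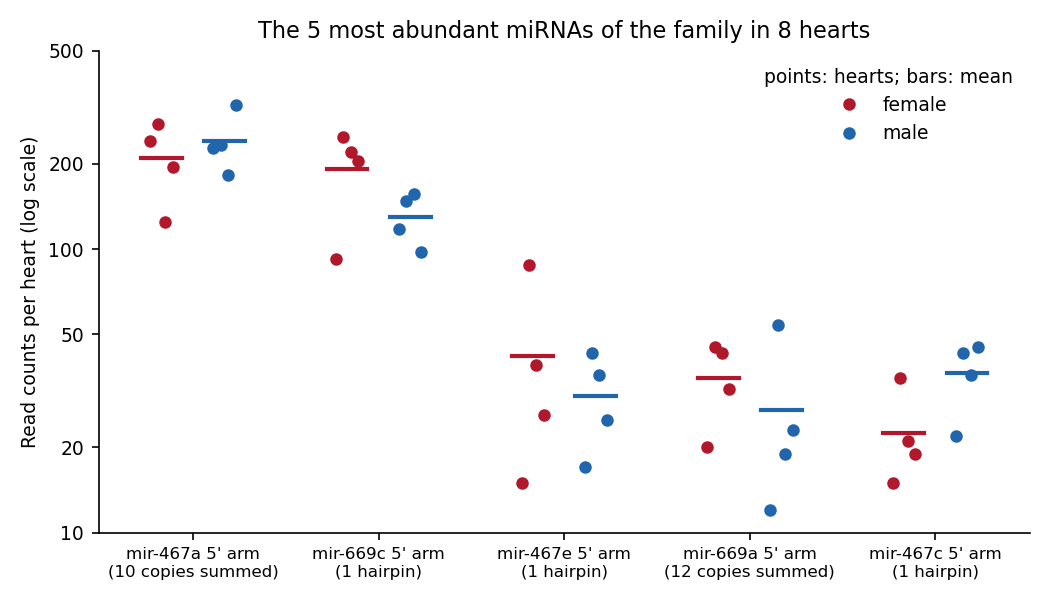
Read counts per heart (vertical axis, log scale) for the 5' arms that held most of the family's counts, with copies summed where a name has several, female hearts in red and male hearts in blue; points are hearts and bars are means of 4 hearts. Female and male points overlap for each of the 5 miRNAs.

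Counts on the 5' arm of mir-467b (10481248 to 10481320) came in steps. It held 16, 2, 1 and 1 counts in female and 17, 17, 1 and 14 in male hearts. Of these 69 counts 61 were unique, all in the 4 hearts with 14 or more, and none was exact. No unique value from 1 to 9 occurred anywhere in the tables, which is what a minimum of 10 copies per distinct read would leave. A value near 10 and a value near 0 can therefore lie close together, and a 0 gives no upper bound.

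Mature counts in a single heart only were found for 6 arm entries, with 10 to 22 counts each. On the 5' arm mir-467d had 22 counts and the 3' arms of mir-466d and mir-466q had 12 and 10, all in female replicate 2. The 5' arms of mir-466i, mir-669b and mir-669e had 13, 11 and 10 counts, all in female replicate 3. All of these counts were unique and none was exact. The mir-466q hairpin also had reads outside both arms, 10, 13 and 10 in female replicates 2 and 3 and male replicate 4. Mir466q lies on chromosome 3 (28419943 to 28420018) in an intron of Tnik on the same strand, and Mir466i on chromosome 13 (17747473 to 17747593) in an intron of Cdk13 on the opposite strand. The mir-466i reads were counted on the 5' arm, so they are not the 3p strand printed here. Whether counting used strand is not given in the sources used here.

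Of the 4126 mature counts, 4025 were on the 5' arm. This arm made up 98.2% ± 2.19 of the family's mature counts in females and 97.4% ± 1.92 in males. For all other mouse entries the values were 75.9% ± 1.38 and 75.5% ± 2.90 (SD, n = 4 each), as a description without a test. The family's 3' counts were 11, 34, 0 and 0 in female and 0, 26, 12 and 18 in male hearts. A minimum of 10 copies per distinct read would remove rarer strands of hairpins with so few reads. The arm shares of the family and of more abundant miRNAs therefore do not compare like with like. The 101 counts on the 3' arm came mostly from mir-669a, whose copies together held 10, 11, 0 and 0 in female and 0, 23, 11 and 16 in male hearts. The 3' arms of mir-466d and mir-466q gave the 12 and 10 counts already described. The 8 counts of the 3' arm of mir-669o lay in the same 5 hearts as those of mir-669a, with 1, 1, 0 and 0 in female and 0, 3, 1 and 2 in male hearts. No 3' read of mir-669o or mir-669a was unique, and mir-669o held about as many as a single mir-669a copy. Their shared hearts are what division of the same reads among entries gives. None of the 3' counts was exact. In a comparison of the log2 ratio of 5' to 3' counts between the sexes with limma, 114 hairpins had enough reads on both arms, 0 had an adjusted p under 0.05, which is 0% of those tested, and 7 had an unadjusted p under 0.05. No hairpin of the family had enough 3' reads to enter.

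Reads were also found outside both arms, 112 in all. They made up the whole signal of 5 hairpins, mir-466c-1, mir-466c-2, mir-466c-3, mir-466f-2 and mir-669h. Those of the mir-466c copies lay in female replicates 1 and 3 and male replicate 4 and all matched exactly. The 10 reads of mir-466f-2 lay in male replicate 4. Those of mir-669h came to 6, 0, 14 and 0 in female and 5, 5, 6 and 0 in male hearts.

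Fewer of the family's reads could be placed on 1 hairpin than those of other miRNAs. In female replicates 1 to 4 the unique share of the family's mature counts was 32.4%, 54.5%, 63.5% and 51.0%, and in male replicates 1 to 4 it was 41.0%, 43.2%, 50.9% and 32.2%. Other mouse entries lay between 78.2% and 81.8%, so the ranges did not overlap. The mean difference was -34.14 percentage points (SD 12.04, 8 hearts), lower in 8 of 8 hearts. The exact sign-flip permutation test over hearts, two-sided, gave p = 0.007812, the smallest that 8 hearts can give, and 0.01562 adjusted over the 2 measures compared. As a median over entries the unique share was 0% in the family and 100% in the others in each heart, a difference of -100 points (p = 0.007812, exact sign-flip permutation test, 8 hearts). Entries with the same mature strand cannot keep a read to themselves. The 10 mir-467a, 12 mir-669a and 2 mir-669p copies of the family had no unique read. A lower unique share was thus largely fixed by the copies, and the p-values are no further evidence for it. Of the 2200 counts that were not unique, 81.86% were on the mir-467a copies. By name the unique share was 24.16% in miR-467, 78.08% in miR-669 and 100% in miR-466. Against the Dlk1-Dio3 hairpins, whose reads were 99.96% unique on average, the mean difference was -53.86 points.

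The exact share went the other way when counts were pooled. It was 34.4% ± 3.92 of the family's mature counts and 26.3% ± 1.18 of those of other mouse entries (SD, n = 8). The mean difference was 8.15 points (SD 4.50), higher in 7 of 8 hearts. The exact two-sided sign-flip permutation test gave p = 0.01562, and 0.01562 after adjustment over the same 2 measures. The adjustment left the value as it was, because the p of the unique share is smaller. That p was largely fixed by the copies. The heart with the lower value was male replicate 4, at 27.2% against 28.1%. The sign turned when each entry counted equally. The median over entries was 9.97% in the family and 26.6% in the others, a difference of -16.62 points (p = 0.007812, exact sign-flip permutation test, 8 hearts). The pooled share is weighted by mir-669c, mir-467c and mir-467e, with exact shares of 63.61%, 85.17% and 60.9%. The median falls among the many copies of mir-467a and mir-669a. At such low counts the exact share could swing widely. For mir-467e all 15 counts of female replicate 1 and all 17 of male replicate 1 were exact, against 56 of 88 in female replicate 2. For mir-467a 0 of 125 were exact in female replicate 3. How far a minimum of 10 copies per distinct read shapes either difference was not tested.

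**Figure D4:**
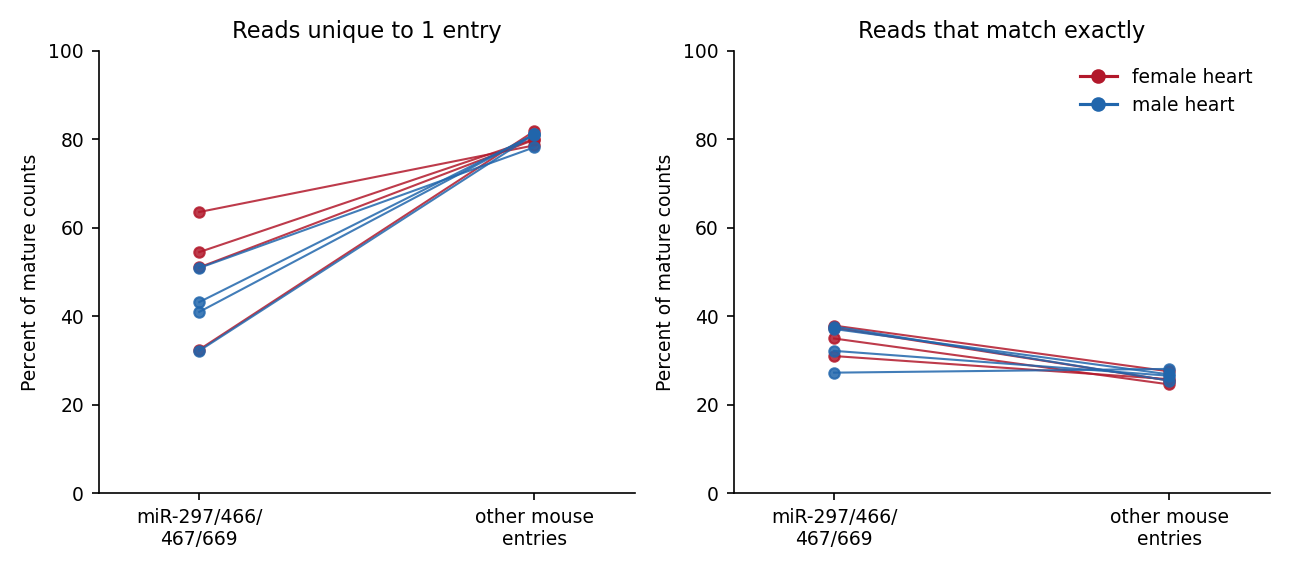
Percent of mature counts unique to 1 entry (left) and matching the mature sequence exactly (right) for the family and for all other mouse entries; each line joins both values of 1 heart, female in red and male in blue. All 8 lines rise on the left, and 7 of 8 fall on the right.

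The question of the series is whether male and female hearts differ, and no hairpin of the family passed that test. Every arm entry of the tables was fitted with edgeR's quasi-likelihood test, and 703 entries with enough reads were tested together. Of all entries 0% had a Benjamini-Hochberg adjusted p under 0.05 and 5.69% an unadjusted p under 0.05. Of the family's 46 arm entries 14 had enough reads for the test, 10 of them mir-467a copies with shared reads. None of the 14 had an unadjusted p under 0.05, and the lowest adjusted p was 0.8275. Levels of female and male hearts overlapped for all 14, where 3.7% of all entries did not overlap (2.84% with every female heart above every male heart and 0.853% with every female heart under them). The fold was below 0 (lower in female hearts) for 12 of the 14, with a median of -0.31 on the log2 scale, but the 10 mir-467a copies supply most of these, and 50.21% of all entries lay below 0.

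In CPM (counts per 1000000, scaled for composition by TMM, a trimmed mean method), mir-669c stood at 5.36 ± 1.35 in females and 4.20 ± 0.687 in males (SD, n = 4 each). Its log2 fold change, female minus male, was 0.35 (SE 0.25, edgeR adjusted p = 0.8275). For mir-467c the levels were 0.641 ± 0.189 and 1.19 ± 0.367 CPM, and the difference was -0.89 on the log2 scale (SE 0.45, with an adjusted p of 0.8275 from edgeR). For mir-467e they were 1.15 ± 0.788 and 0.977 ± 0.360 CPM, with a difference of 0.24 (SE 0.52, adjusted p of 0.9561 from edgeR), which became -0.36 without female replicate 2. The SD within a sex exceeded the difference between the sexes' mean levels in both sexes for mir-467e and mir-467b and in females for mir-669c. The fold of mir-467b was -1.24 (SE 1.24, edgeR adjusted p = 0.8625), from 0.180 ± 0.289 and 0.410 ± 0.257 CPM, and it moved to -3.45 without female replicate 1.

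With copies summed before the fit, mir-467a differed by -0.35 on the log2 scale (SE 0.32, with an adjusted p of 0.8273 from edgeR over 534 entries, of which 0% were called). For mir-669a the 5' arm had 0.16 (SE 0.56, edgeR adjusted p = 0.9865) and its 3' arm -1.34 (SE 1.45, edgeR adjusted p = 0.8691). For mir-467e and both arms of mir-669a the standard error exceeded the fold itself, so these hearts bound a difference between the sexes only loosely.

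**Figure D5:**
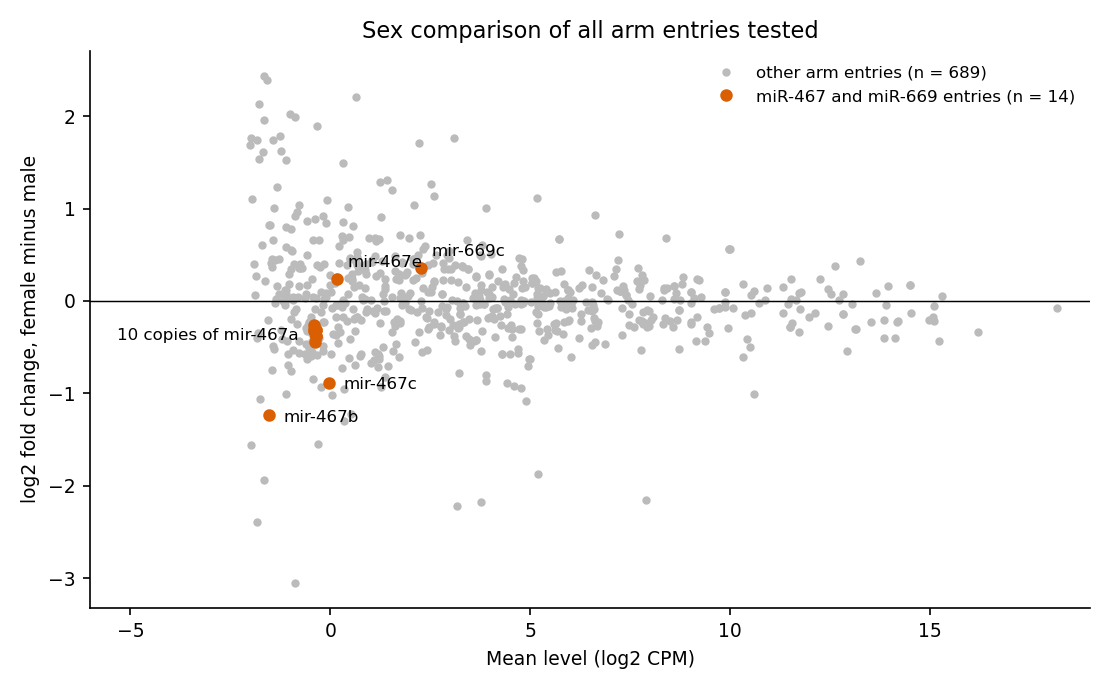
Log2 fold change, female minus male (vertical axis), against mean level in log2 CPM (horizontal axis) for the 703 arm entries tested with edgeR, with the 14 entries of the family in orange. The family's entries lie at the low end of the levels, apart from mir-669c, and between -1.24 and 0.35 on the vertical axis.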

How the data were processed

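Small RNA of 4 female and 4 male hearts was sequenced, with 1 library per heart. The deposited tables hold read counts for each hairpin. Per the file headers, these are given for the 5' arm, the 3' arm and other reads, with exact counts for all and unique counts for the arms. The submitters' processing notes name STAR and mm10. How reads were trimmed, filtered and counted is not given in the sources used here. Hairpins, markers and alternatives were chosen with earlier results of these data known. Sequences and positions are RefSeq GRCm38.p6, the assembly of mm10, with introns and the start of Sfmbt2 for distances from GENCODE.

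Arm entries were tested with edgeR 4.0.16 (quasi-likelihood, sex alone, TMM, filterByExpr with a minimum count of 10 and total of 15; R 4.3.3), with Benjamini-Hochberg adjustment over 703 entries and a threshold of 0.05. These held 99.9979% of mature counts. Standard errors are the fold change over the square root of F. Arm ratios used limma 3.58.1 with a pseudocount of 0.5 and a mean of at least 20 counts per arm. Alternatives included DESeq2 1.42.0 and limma-voom. Replicates are separate animals, so p-values measure the spread between hearts. Total counts ran from 29900500 to 38894987 per library, and precision for single hairpins is limited by their low counts. The TMM factor of female replicate 3 was 1.41, against 0.875 to 1.06 in the others.

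Named were the 12 entries with the highest counts, the 6 highest by unique and by exact reads, and up to 8 with an unadjusted p under 0.05 (none). The entries with mature counts in a single heart, mir-669o and those with reads outside the arms were named after their values were seen. Mouse entries sharing a seed with a named entry were to be named too, and none was found for miR-466q and miR-466i-3p, the listed hairpins with a sequence at hand. That search did not cover the family's strands from inside Sfmbt2, which had no sequence at hand.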

Additional observations from a re-analysis of the deposited data

Results flagged for a closer look

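Among 22 sets of 4 hearts examined for a single heart apart from the rest, 3 were set apart, where chance sets apart 1 in 20, or 1.1 of these. The 5' arm of mir-467b stood at 0.549 counts per 1000000 mature counts in female replicate 1, against 0.0287 to 0.0529 in the other female hearts. These were 16 counts against 2, 1 and 1, the steps described above. Male hearts held 17, 17, 1 and 14, so the value is not particular to that heart. The 5' arm of mir-669p stood at 0.271 in male replicate 2, against 0.0591 to 0.0930 in the other male hearts. No mir-669p read was unique. The 5' arm of mir-669a was also highest there among male hearts, with 54 counts against 12 to 23, so the value is not particular to mir-669p. Male replicate 3 had 13 family hairpins with at least 10 counts, where the other male hearts had 14. When the other hearts are equal, any different value is set apart, so the chance of 1 in 20 does not hold for this set.

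Reads outside both arms, which enter none of the comparisons, were listed for 6 hairpins, with no control sample to set them against. Over the 8 hearts these were 11 counts each for mir-466c-1 (11), mir-466c-2 (11) and mir-466c-3 (11), 10 for mir-466f-2, 33 for mir-466q and 36 for mir-669h. The position of these reads on the hairpin was not analysed here.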

How the results depend on the processing

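No entry of the family was called between the sexes under any of the 20 other settings. Of these, 1 (at least 10 CPM in 4 libraries) left none of its entries to test. An unadjusted edgeR p under 0.05 occurred for 1 family entry each with exact reads only, without female replicate 1 and without female replicate 2. Over all entries 28, 56 and 38 had one in these settings. In the other settings no family entry did. Over all entries 0 were called in the edgeR fit and 40 had an unadjusted p under 0.05. The number called was 1 with upper quartile factors, 1 with at least 10 CPM in 4 libraries, 3 with DESeq2, 1 with mouse entries alone, 0 with limma-voom, and 0 to 1 when a heart was left out (1 without female replicate 3). Library size alone moved the median fold of all entries to 0.13 (log2), and mir-669c then had 0.49. The replicate numbers were not taken as pairs, since not every heart correlated best with its own number. Same-numbered hearts deviated together with r from -0.0322 to 0.335, and differently numbered hearts with r from -0.425 to 0.222. Female replicates 1 to 3 and male replicates 1 and 2 correlated best with their own number. Female replicate 4 and male replicates 3 and 4 did not. Whether a shared number marks a batch was not tested. With the replicate block, 1 entry was called over all and 0 of the family. In that edgeR fit 56 entries had an unadjusted p under 0.05.

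The fold of mir-467e turned to -0.36 without female replicate 2 (SE 0.52, edgeR adjusted p = 0.9847) and was above 0 in the other 18 settings (up to 0.47 with a heart left out), with adjusted p from 0.7934 to 0.9951 over all of them. The folds of mir-669c (0.22 to 0.49), mir-467c (-1.17 to -0.75), mir-467b (-3.45 to -0.84) and the median of the mir-467a copies (-0.58 to -0.07) kept their sign.

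The number of hairpins found moved with its definition, to 30 in female and 28.75 in male hearts at 1 count, 0.75 and 0.75 at 100 counts, 4.75 and 3.75 with unique reads, 3 and 3 with exact reads, and 6.75 and 5.75 with copies summed. Leaving out a heart gave 14.33 to 15.33 and 13.67 to 14. The family's share was 11.52 and 8.842 of unique reads and 24.6 and 21.22 of exact reads per 1000000 in female and male hearts, and 16.56 to 18.79 and 15.62 to 18.2 with a heart left out. The difference in unique share ran from -36.87 to -31.96 points with a heart left out and was -31.26 among entries with at least 10 counts in all hearts and -100 as a median over entries. The difference in exact share ran from 7.565 to 9.436 and turned to -16.62 as a median over entries, where copies with shared reads count as often as their number. Leaving out a heart called 0 arm ratios.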
